A study of Mus musculus with 24 samples.

Results

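The genes of the MHC class I pathway described here were Tap1, Tap2, Tapbp, B2m, H2-K1, H2-D1, H2-T23 and H2-M3. Members were the probes whose gene name in the scanner files equals one of these 8 symbols. Of the 8 genes, 7 had a probe, H2-D1 having none under that name, and these 7 had 13 of the 41174 probes on the array. All 13 probes were well above background in all 24 channels, none had a saturated spot, and all 7 genes passed the filter on low signal and were tested. Values are log2 normalized intensities, and a change is a difference of these, given with its standard error.

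RNA came from cells of C57BL/6 mice, with the agent being Kdo2 lipid A (KLA), a pure TLR4 agonist. Elicited peritoneal macrophages (EPM), harvested after thioglycollate injection and freed of non-adherent cells, were untreated, given KLA for 1 h, given the solvent DMSO for 12 h or given KLA for 12 h. Bone marrow-derived macrophages (BMDM), grown in L-cell medium as the source of M-CSF, were given DMSO or KLA for 1 h or 12 h. Resting splenic B cells, left after beads had removed cells bearing CD43 or CD11b, were untreated, given KLA for 1 h, DMSO for 12 h or KLA for 12 h. Each of the 12 conditions was hybridised on 1 array of 2 biological replicates, replicate 1 in the Cy5 and replicate 2 in the Cy3 channel, and each cell type had a slide of its own. A difference between conditions is therefore also one between arrays, and one between cell types also one between slides, which cannot be told apart. In bulk samples, fewer cells of a type and less RNA per cell cannot be told apart.

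The 10 B cell markers summed to between 215000 and 266000 intensity units in the B cell channels and to between 1830 and 5090 in the macrophage channels. The 11 macrophage markers summed to between 2750 and 6890 in B cells and to between 413000 and 653000 in macrophages. The 7 neutrophil markers summed to between 10000 and 24800 in BMDM, against 1120 to 2050 in EPM. Markers of other cells also differed between the cell types. The 5 erythroid markers summed to between 3630 and 13400 in B cells and to between 412 and 452 in macrophages. The 5 dendritic cell markers summed to between 11200 and 24100 in B cells, 4870 and 14000 in EPM and 703 and 930 in BMDM, with Siglech not well above background in any. Single markers did not all follow this sum. Of 4 tested, 2 were higher and 2 lower in untreated B cells than in untreated EPM, where 77.2% of all genes differed. Against BMDM 1 was higher and 1 lower, where 76.6% of all genes differed. Itgax was not well above background in B cells at 12 h. Whether these sums come from other cells, and the part of such cells in the differences between cell types given further on, was not tested. In a table of normalized values that the authors also deposited, 4 of 24 columns, those of B cells with KLA for 1 h and of B cells with DMSO for 12 h, correlated best with the scanner channels of each other's condition, each with r of at least 0.96 after centring within B cells. The macrophage markers summed to between 2750 and 3440 in the scanner channels of untreated B cells and of B cells with KLA for 1 h, and to between 6140 and 6890 in those of both 12 h conditions. The scanner files' labels were used. Counts among the 7 genes that rest on the libraries labelled B cell KLA 1 h or B cell DMSO 12 h are also given with these labels exchanged.

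Class I molecules display peptides from inside the cell to CD8 T cells and to NK cell receptors. Proteasomes cut proteins into peptides, the transporter formed by Tap1 and Tap2 pumps them into the endoplasmic reticulum, and tapasin, encoded by Tapbp, holds an empty class I molecule at the transporter until a peptide binds. A class I molecule joins a heavy chain to the light chain beta-2 microglobulin, encoded by B2m. H2-K1 and H2-D1 encode classical heavy chains, H2-T23 encodes the non-classical chain that engages CD94/NKG2 receptors, and H2-M3 encodes a chain that presents N-formylated peptides. The genes of this pathway are known targets of interferons, of interferon regulatory factors and of NF-kappaB.

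The 300 bases around the transcription start are shown for the transporter gene Tap1, the light chain gene B2m and the heavy chain genes H2-K1 and H2-M3. By their brightest probes these rose at 12 h in both macrophages and differed in size of change. The windows run from 250 bases before to 50 after a start, are those of RefSeq on GRCm38.p6, and were found for 7 of the 8 genes. They are written on the strand of the gene, with capitals marking the letters GAAANNGAAA and GAAGTGAAA, known cores of interferon-stimulated response elements, GGGANNNNCC, the NF-kappaB core, TGACG, the core of a cAMP response element, and CCAAT, each searched on both strands. The NF-kappaB letters can match on both strands at shifted positions, and the marked stretch is then their union. In H2-M3 a CCAAT match overlaps the NF-kappaB match.
Tap1 (chr17:34187306-34187605, plus strand): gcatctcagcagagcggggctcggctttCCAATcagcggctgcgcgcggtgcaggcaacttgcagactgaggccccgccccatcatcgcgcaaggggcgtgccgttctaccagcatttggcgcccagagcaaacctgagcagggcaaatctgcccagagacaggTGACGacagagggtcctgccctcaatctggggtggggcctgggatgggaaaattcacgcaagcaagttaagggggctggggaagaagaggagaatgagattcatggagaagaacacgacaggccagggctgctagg
B2m (chr2:122147437-122147736, plus strand): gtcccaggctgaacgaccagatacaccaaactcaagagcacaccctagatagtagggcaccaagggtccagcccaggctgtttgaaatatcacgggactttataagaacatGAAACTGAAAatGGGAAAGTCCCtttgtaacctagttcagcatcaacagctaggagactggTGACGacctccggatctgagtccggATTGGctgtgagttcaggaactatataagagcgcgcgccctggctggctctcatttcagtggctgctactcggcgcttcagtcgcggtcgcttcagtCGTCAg
H2-K1 (chr17:34000298-34000597, minus strand, 1 of 2 listed starts): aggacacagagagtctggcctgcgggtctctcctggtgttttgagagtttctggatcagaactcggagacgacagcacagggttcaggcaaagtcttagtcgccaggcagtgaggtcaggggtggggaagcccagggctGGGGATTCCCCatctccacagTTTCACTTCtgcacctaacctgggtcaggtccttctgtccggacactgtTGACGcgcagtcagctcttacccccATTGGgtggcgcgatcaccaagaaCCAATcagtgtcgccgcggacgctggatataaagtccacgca
H2-M3 (chr17:37269984-37270283, plus strand): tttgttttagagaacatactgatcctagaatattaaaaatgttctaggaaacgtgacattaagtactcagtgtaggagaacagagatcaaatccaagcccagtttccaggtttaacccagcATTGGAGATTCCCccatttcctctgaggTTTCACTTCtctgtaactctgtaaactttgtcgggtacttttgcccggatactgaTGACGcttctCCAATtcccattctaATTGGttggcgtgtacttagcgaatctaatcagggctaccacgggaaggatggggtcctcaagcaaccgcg

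GAAGTGAAA, held by 0.505% of the 32851 windows of all genes, was found in the windows of H2-K1, H2-D1 and H2-M3. GAAANNGAAA, held by 3.44% of windows, was found in B2m and H2-T23, at bases -139 to -130 from the B2m start. The NF-kappaB letters were in the windows of B2m, H2-K1, H2-D1 and H2-M3 and in 20.7% of all windows. TGACG was in 5 of the 7 windowed genes and in 20.8% of all windows, and CCAAT in 7 of 7 and in 37.4%. The Tap1 window held only TGACG and CCAAT of these letters. Its start lies 226 bases from that of Psmb9, an immunoproteasome gene transcribed the other way.

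After 12 h of KLA all 7 measured genes rose in EPM and all 7 rose in BMDM, each by its brightest probe, with the largest changes for the peptide transporter and tapasin and the smallest for H2-T23 in EPM and H2-K1 in BMDM. Among all genes tested, 19.6% rose in EPM and 28.6% in BMDM at the same threshold, an adjusted p under 0.05. The median change of the 7 was 1.58 on the log2 scale in EPM, against -0.06 for all genes, and 1.21 in BMDM, against -0.03. The order of the genes by size of change depends on the probe. H2-K1 probes ranged from 0.20 to 1.23 in BMDM and B2m probes from 0.87 to 2.05 in EPM, in both with the smallest change for the brightest probe. Whether a bright signal limited the change was not tested.

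Tap1, one chain of the transporter, stood at 9.09 and 8.99 (replicates 1 and 2) in EPM given DMSO and at 12.95 and 12.94 in EPM given KLA for 12 h. In BMDM the values were 10.60 and 10.56 with DMSO and 12.82 and 12.87 with KLA. The groups were far apart in both macrophages, and the KLA channels of EPM and BMDM came within 0.2 of each other although their controls were over 1 apart. The change was 3.91 ± 0.09 in EPM, 15-fold (adjusted p = 4.80e-17), and 2.26 ± 0.09 in BMDM, 4.8-fold (adjusted p = 1.25e-13).

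Tap2, the other chain, was at 10.12 and 10.46 in EPM given DMSO for 12 h and at 12.91 and 13.18 with KLA. In BMDM it was at 10.15 and 10.46 with DMSO and at 12.81 and 13.11 with KLA. Replicate 2 read higher than replicate 1 in all 12 conditions, by less than the rise with KLA. The change was 2.76 ± 0.17 in EPM (adjusted p = 1.41e-10) and 2.66 ± 0.17 in BMDM (adjusted p = 1.53e-10). The study's list of late genes holds Tap1 and Tap2. It was picked in EPM given KLA by low induction at 1 h and high induction at 12 h. In EPM their rise at 12 h cannot therefore be taken as independent evidence of its direction. The same limit holds for their small change at 1 h and for the difference between the times.

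Tapbp, which encodes tapasin, was at 14.06 and 13.92 in EPM with DMSO and at 16.01 and 15.86 after 12 h of KLA. In BMDM it was at 13.67 and 13.64 with DMSO and at 15.39 and 15.36 with KLA. No KLA channel overlapped its control in either macrophage. The change was 1.94 ± 0.08 in EPM (adjusted p = 3.20e-13) and 1.72 ± 0.08 in BMDM (adjusted p = 1.39e-12), and the other Tapbp probe gave 2.10 and 1.90.

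**Figure D1:**
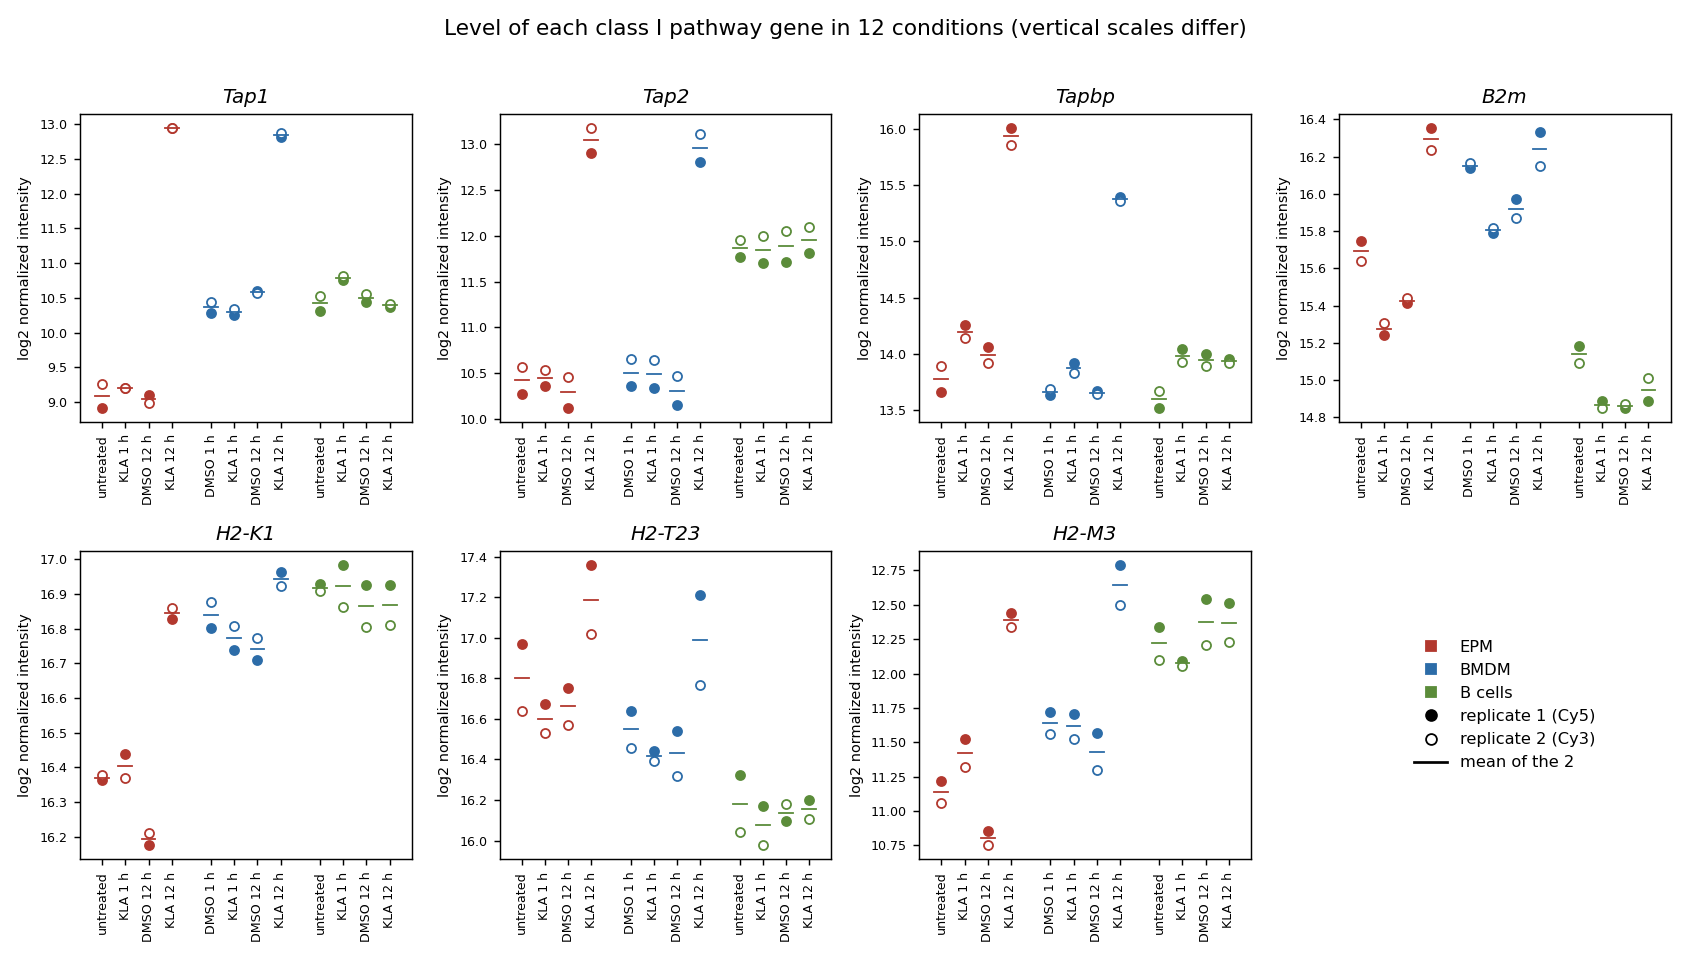
Normalized log2 intensity (vertical axes, scales differ) of each of the 7 measured genes in 12 conditions (horizontal axis), 1 point a channel, filled for replicate 1 and open for replicate 2, with a bar at their mean. Tap1, Tap2 and Tapbp stand clear of every other condition in EPM and BMDM given KLA for 12 h, while the 4 B cell conditions lie close together.

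B2m, the shared light chain, had smaller changes. With its brightest probe it was at 15.41 and 15.44 in EPM given DMSO and at 16.35 and 16.24 after 12 h of KLA. In BMDM it went from 15.97 and 15.87 to 16.33 and 16.15. The groups did not overlap in either macrophage, though in BMDM the lower KLA channel stood less than 0.2 above the higher DMSO channel. The change was 0.87 ± 0.07 in EPM (adjusted p = 2.86e-09) and 0.32 ± 0.07 in BMDM (adjusted p = 0.000421).

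B2m has 3 probes, placed by the files on mm8 at chr2:121844230-121844286 (A_51_P129006), chr2:121844106-121844165 (A_51_P129012, the brightest) and chr2:121840304-121840363 (A_52_P105594). All 3 rose at 12 h. A_51_P129006 changed by 0.96 in EPM and 0.30 in BMDM, close to the brightest probe. A_52_P105594, the upstream probe with the larger standard error, changed by 2.05 ± 0.21 in EPM and 1.00 ± 0.21 in BMDM.

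H2-K1, the classical heavy chain, was at 16.18 and 16.21 in EPM given DMSO and at 16.83 and 16.86 with KLA for 12 h by its brightest probe. In BMDM it was at 16.71 and 16.77 with DMSO and at 16.96 and 16.92 with KLA. The channels did not overlap, but the rise was 0.65 ± 0.06 in EPM (adjusted p = 3.14e-08) and 0.20 ± 0.06 in BMDM (adjusted p = 0.00648), and without BMDM DMSO 12 h replicate 1 the BMDM change was 0.17 with adjusted p = 0.0594. The 2 dimmer probes gave larger changes. A_52_P474242, at chr17:33609987-33610233 on mm8, changed by 0.91 ± 0.12 in EPM and 1.02 ± 0.12 in BMDM (adjusted p = 3.14e-06 and 4.51e-07). A_52_P50496, at chr17:33609797-33609856, changed by 1.79 ± 0.12 and 1.23 ± 0.12 (adjusted p = 3.12e-10 and 3.94e-08). The class I genes of the H2 complex are close in sequence, so a probe may bind transcripts of several, and their probes' values are uncertain to that extent.

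H2-T23, the chain seen by CD94/NKG2 receptors, had 1 probe. It was at 16.75 and 16.57 in EPM with DMSO and at 17.36 and 17.02 with KLA, while in BMDM it was at 16.54 and 16.32 with DMSO and at 17.21 and 16.77 with KLA. Replicate 1 read higher than replicate 2 in 11 of 12 conditions, and by 0.34 in EPM given KLA. The change was 0.53 ± 0.15 in EPM (adjusted p = 0.00544) and 0.56 ± 0.15 in BMDM (adjusted p = 0.00268). The EPM call was lost without EPM DMSO 12 h replicate 2 (change 0.44, adjusted p = 0.059) or without EPM KLA 12 h replicate 1 (0.36, adjusted p = 0.102), and the BMDM call without BMDM KLA 12 h replicate 1 (0.34, adjusted p = 0.0798).

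H2-M3, the chain for N-formylated peptides, was at 10.86 and 10.75 in EPM with DMSO and at 12.44 and 12.34 with KLA for 12 h. In BMDM it was at 11.56 and 11.30 with DMSO and at 12.79 and 12.50 with KLA. KLA and control were well separated in both. The change was 1.58 ± 0.13 in EPM (adjusted p = 7.74e-09) and 1.21 ± 0.13 in BMDM (adjusted p = 1.91e-07), and the other H2-M3 probe gave 1.60 and 1.15.

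**Figure D2:**
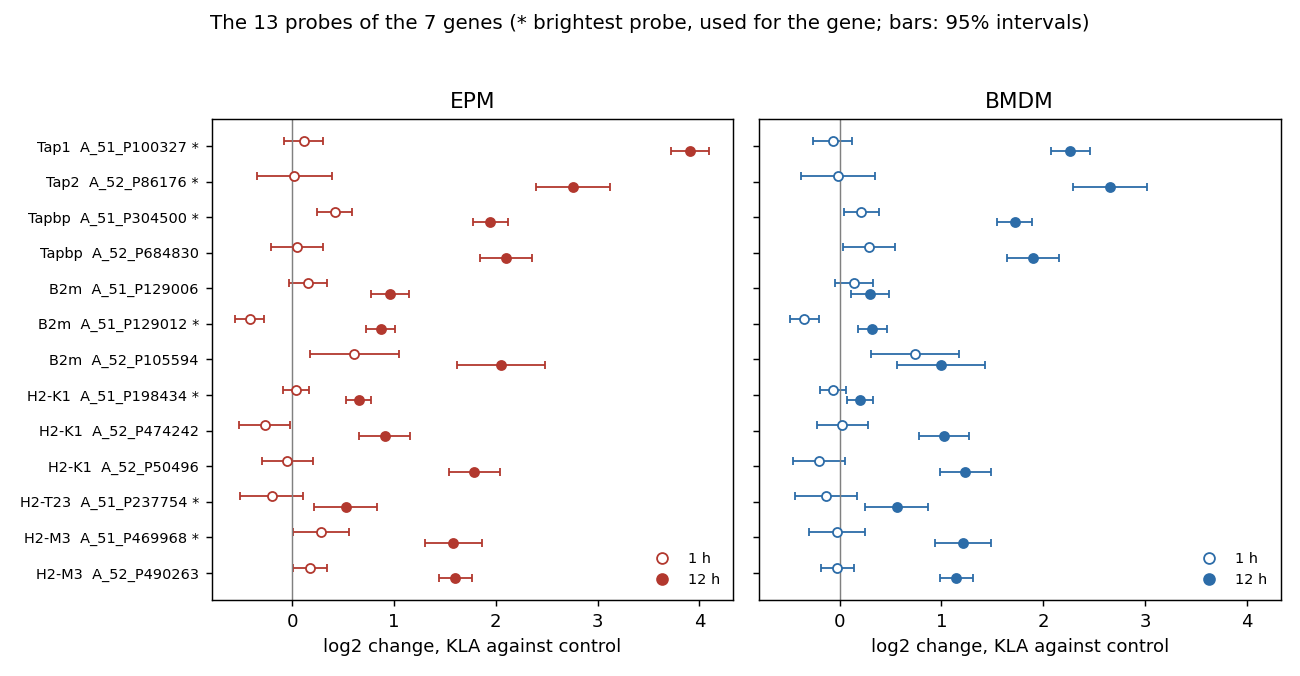
Log2 change with KLA (horizontal axis) at 1 h (open) and 12 h (filled) for each of the 13 probes in EPM and BMDM, with 95% intervals of the fit and a star at the brightest probe of a gene. All 13 lie above 0 at 12 h in both macrophages, the 3 H2-K1 probes differ in size, and the 3 B2m probes lie on both sides of 0 at 1 h.

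Both channels of a condition share an array, so their spread leaves out variation between arrays. Array means were also taken as the samples, with the 2 control arrays of a cell type as replicates, which leaves 3 residual degrees of freedom. A change is then against the mean of both controls, not against the control of the same time. By that fit 4 of the 7 genes rose in EPM, where 5.62% of all genes did, and 5 in BMDM, against 9.28%. Tap1 (adjusted p = 0.000438 in EPM and 0.00134 in BMDM), Tap2 (0.00101 and 0.00116), Tapbp (0.00449 and 0.00556) and H2-M3 (0.0126 and 0.0167) stayed past the threshold in both macrophages. B2m (0.0811 and 0.547) and H2-K1 (0.0541 and 0.481) did not pass in either, and H2-T23 passed in BMDM (0.0461) and not in EPM (0.0842). Beside these changes at 12 h, by the fit on channels, 4 of 7 neutrophil markers rose and 1 fell in BMDM, where 28.6% of all genes rose and 36.3% fell. In EPM 4 of 11 macrophage markers rose and 6 fell, where 19.6% of all genes rose and 34.3% fell. The part of these markers in the results was not tested.

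At 1 h the changes were small. Of the 7 genes, 2 passed the test in EPM, where 29.1% of all genes did, and 1 in BMDM, against 28.6%. In EPM, Tapbp was at 13.66 and 13.89 untreated and at 14.25 and 14.14 with KLA, a change of 0.42 ± 0.08 (adjusted p = 0.000673). Its other probe gave 0.05 ± 0.12 (adjusted p = 0.833). The processed signals of the scanner software gave a Tapbp change of -0.11 (adjusted p = 0.377), in the other direction. Tap1 (0.11 in EPM and -0.07 in BMDM) and Tap2 (0.02 and -0.02), the 2 genes with the largest 12 h changes, did not pass at 1 h in either macrophage.

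By its brightest probe B2m fell at 1 h in both macrophages. It was at 15.75 and 15.64 in untreated EPM and at 15.24 and 15.31 with KLA, while in BMDM it was at 16.14 and 16.16 with DMSO and at 15.79 and 15.82 with KLA. The channels did not overlap, with changes of -0.42 ± 0.07 (adjusted p = 0.000111) and -0.35 ± 0.07 (adjusted p = 0.000731). The other probes did not show this fall. A_51_P129006 changed by 0.16 in EPM and 0.14 in BMDM (adjusted p = 0.228 and 0.286), and A_52_P105594 by 0.61 and 0.74 (adjusted p = 0.0345 and 0.012), and the mean of the 3 probes changed by 0.12 and 0.18. The B2m fall also did not pass without normalization between arrays, at -0.15 in EPM and -0.15 in BMDM (adjusted p = 0.0992 and 0.108). With the authors' values it was -0.18 and -0.15 (adjusted p = 0.141 and 0.218). With array means as samples no gene of the 7 passed at 1 h in EPM, BMDM or B cells.

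The fit with the replicate number, which here is the dye, as a block added a call at 1 h for H2-M3 in EPM (0.28, adjusted p = 0.000843, against 0.125 without the block) and for Tapbp in BMDM (0.21, adjusted p = 0.0256, against 0.0587), which made the BMDM count 2.

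**Figure D3:**
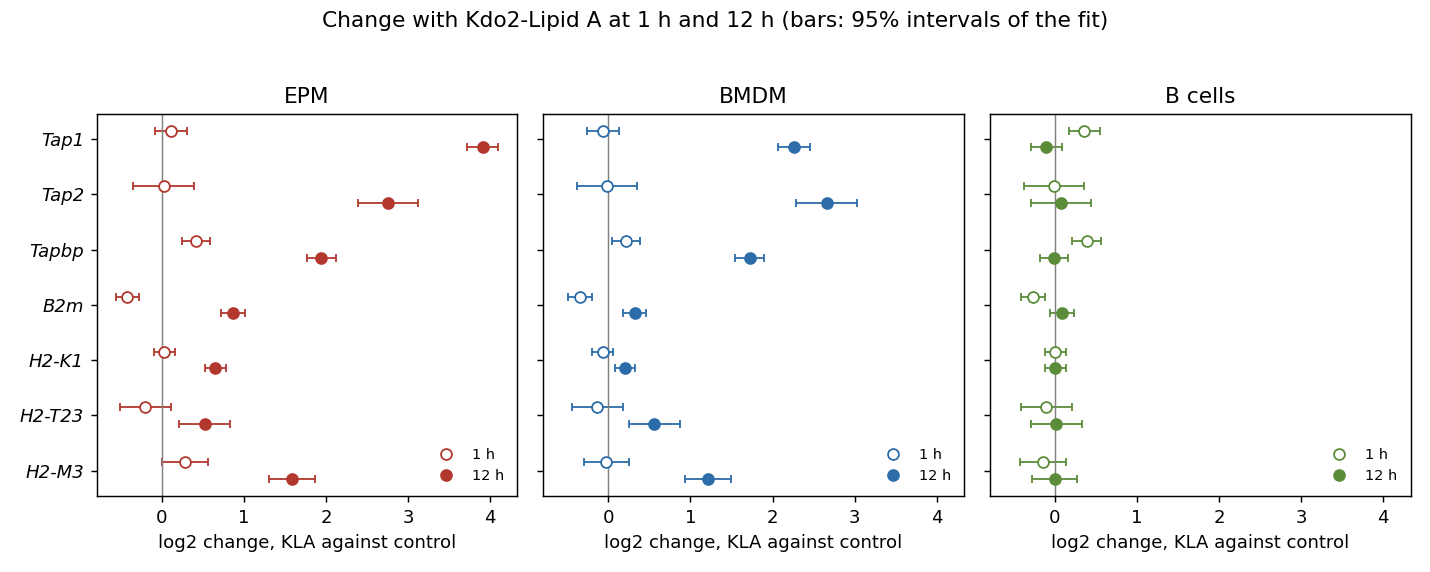
Log2 change with KLA (horizontal axis) against untreated cells at 1 h in EPM and B cells and against DMSO of the same time otherwise, for the 7 genes in EPM, BMDM and B cells, open at 1 h and filled at 12 h, with 95% intervals of the fit over 2 replicates a condition. All 7 points at 12 h lie above 0 in both macrophages and between -0.10 and 0.09 in B cells.

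In B cells no gene of the 7 passed the test at 12 h, where 5.29% of all genes did. Unadjusted p under 0.05 was reached by 0 of the 7. Tap1 was at 10.44 and 10.55 with DMSO and at 10.37 and 10.41 with KLA, a change of -0.10 with a 95% interval of -0.29 to 0.09. Tap2 was at 11.71 and 12.06 with DMSO and at 11.81 and 12.10 with KLA, a change of 0.07 (-0.30 to 0.44). For Tap1 both KLA channels lay just below both DMSO channels, and for Tap2 the channels overlapped. The other 5 genes changed by between -0.01 and 0.09. With the labels B cell KLA 1 h and B cell DMSO 12 h exchanged, 1 gene passed, Tap1, with a change of -0.39 (adjusted p = 0.00164), and in the authors' table Tap1 changed by -0.27 (adjusted p = 0.0344).

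At 1 h, 3 genes passed in B cells, against 5.17% of all genes. Tap1 was at 10.31 and 10.53 untreated and at 10.75 and 10.81 in the library labelled B cell KLA 1 h, a change of 0.36 ± 0.09 (adjusted p = 0.0273). Tapbp was at 13.52 and 13.67 untreated and at 14.04 and 13.93 at 1 h, a change of 0.39 ± 0.08 (adjusted p = 0.00833). B2m was at 15.18 and 15.09 untreated and at 14.88 and 14.85 at 1 h, a change of -0.27 ± 0.07 (adjusted p = 0.0264). For Tapbp both 12 h conditions lay with the 1 h channels and apart from the untreated ones. For B2m DMSO at 12 h did so, at 14.85 and 14.87, while KLA at 12 h, at 14.89 and 15.01, lay between the 1 h and the untreated channels. These calls rest on the brightest probes. The other B2m probes changed by 0.04 (adjusted p = 0.877) and 0.14 (0.769) and the mean of the 3 by -0.03 (0.917), and the other Tapbp probe changed by 0.23 (0.312). With the labels exchanged 2 genes passed at 1 h, Tapbp and B2m, and Tap1 changed by 0.07 (adjusted p = 0.544). No gene passed without untreated replicate 1 or without KLA 1 h replicate 1, and without KLA 1 h replicate 2 only Tapbp did.

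The test of the difference between responses at 12 h gave 3 genes with a larger rise in EPM than in BMDM, where 23.2% of all genes had one. The difference was 1.64 ± 0.13 for Tap1 (adjusted p = 7.87e-09), 0.55 ± 0.10 for B2m (0.000121) and 0.45 ± 0.09 for H2-K1 (0.00028). With array means as samples none of the 3 passed, Tap1 having an adjusted p of 0.0572. For Tap2 the difference was 0.10, with a 95% interval of -0.42 to 0.62. The fit with the replicate block added H2-M3 (0.37, adjusted p = 0.00109). The H2-K1 and H2-M3 calls depended on the probe. For H2-K1 the difference was 0.55 by A_52_P50496 (adjusted p = 0.0129) but -0.11 by A_52_P474242 (0.624), and the other H2-M3 probe passed without the block, at 0.46 (0.00254). All 3 B2m probes passed.

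The 12 h response was smaller in B cells than in EPM for 6 of the 7 genes, against 16.9% of all genes, and smaller than in BMDM for 6, against 25.3%. By the brightest probe of each gene the differences from EPM ran from -4.01 for Tap1 to -0.65 for H2-K1, with H2-T23 at -0.51 (adjusted p = 0.0561). Those from BMDM ran from -2.59 for Tap2 to -0.23 for B2m, with H2-K1 at -0.20 (adjusted p = 0.055). The other 2 H2-K1 probes passed against BMDM, at -1.06 (adjusted p = 3.19e-05) and -1.22 (6.61e-06), whereas the B2m probe A_51_P129006 did not, at -0.27 (0.0831). With the replicate block H2-T23 (adjusted p = 0.000833) and H2-K1 (0.0398) passed as well. With the B cell labels exchanged each count was again 6. With array means as samples 3 genes stayed in each comparison, Tap1, Tap2 and Tapbp.

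By the brightest probe of each gene the change at 12 h exceeded that at 1 h for all 7 genes in EPM, against 19.4% of all genes, and for all 7 in BMDM, against 24.5%. Tap1 differed by 3.80 ± 0.13 in EPM and 2.33 ± 0.13 in BMDM, and H2-K1 by 0.62 ± 0.09 and 0.27 ± 0.09. For Tap1 and Tap2 in EPM the choice of the late list limits this, as given above. The other H2-K1 probes gave larger differences, 1.18 and 1.84 in EPM and 1.00 and 1.43 in BMDM. The B2m difference in BMDM, 0.67 ± 0.10, was seen with the brightest probe, the one that fell at 1 h, while A_51_P129006 gave 0.16 ± 0.13 (adjusted p = 0.333) and A_52_P105594 0.25 ± 0.29 (0.507). In EPM all 3 B2m probes passed. With array means as samples the controls of a cell type are 1 group and cancel, which leaves KLA at 12 h against KLA at 1 h. By that comparison 3 passed in EPM, Tap1, Tap2 and Tapbp, and 4 in BMDM, these and H2-M3. In B cells 3 genes differed between the times, against 7.55% of all genes, Tap1 (-0.46 ± 0.13, adjusted p = 0.0353), Tapbp (-0.40 ± 0.12, 0.0425) and B2m (0.35 ± 0.10, 0.0297). The other Tapbp probe gave -0.22 (adjusted p = 0.496), and the other B2m probes gave -0.01 (0.984) and -0.14 (0.84), so both calls rest on 1 probe. With the B cell labels exchanged the count was 3 as well. None of the 3 passed with array means. The count was 0 or 1 without any 1 of the B cell channels other than untreated replicate 2, without which it was 3.

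Basal levels differed between the cell types. Against BMDM given DMSO for 1 h, untreated EPM were lower in 4 of the 7 genes and higher in none, where 29.3% of all genes were lower. Tap1 was at 8.92 and 9.25 in untreated EPM and at 10.29 and 10.44 in BMDM, a difference of -1.28 ± 0.09 (adjusted p = 6.90e-10). The difference was -0.50 for H2-M3 (adjusted p = 0.00329), -0.47 for H2-K1 (2.12e-06) and -0.46 for B2m (1.17e-05). Among the 12 h controls 5 genes differed by their brightest probes, against 56.9% of all genes, these 4 and Tapbp, which was higher in EPM by 0.34 (0.00173). The other Tapbp probe gave -0.22 (adjusted p = 0.145) and the mean of both 0.06 (0.434). Of the 3 H2-K1 probes, A_52_P474242 did not pass, at 0.22 in the early and 0.16 in the 12 h controls (adjusted p = 0.126 and 0.268). With the replicate block H2-T23 was also higher in EPM, by 0.25 in the early and 0.23 in the 12 h controls (adjusted p = 0.0106 and 0.0187).

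Untreated B cells differed from untreated EPM in 6 genes, where 77.2% of all genes differed, and from BMDM in 4, against 76.6%, so these shares lay near or below those of all genes. Tap2 was at 11.77 and 11.95 in untreated B cells, 10.27 and 10.57 in untreated EPM and 10.35 and 10.65 in BMDM with DMSO for 1 h. B cells stood above both macrophages, by 1.44 ± 0.17 over EPM and 1.36 ± 0.17 over BMDM, and the macrophage channels overlapped. Tap1 was at 10.31 and 10.53 in untreated B cells, above EPM by 1.34 (adjusted p = 1.14e-10) and 0.06 from BMDM (95% interval -0.14 to 0.25). By their brightest probes H2-M3 was also higher in B cells than in EPM and BMDM (1.08 and 0.58), H2-T23 lower (-0.62 and -0.37), B2m lower (-0.55 and -1.01), and H2-K1 higher than in EPM (0.55). The H2-T23 difference from BMDM (adjusted p = 0.031) was weak. It was -0.23 without untreated B cell replicate 2 and -0.28 without BMDM DMSO 1 h replicate 1. With the authors' values it did not pass (adjusted p = 0.0526), nor did it in the 12 h controls (-0.29, 0.0805). The 12 h controls gave 6 genes against EPM, with 77% of all genes, and 4 against BMDM, with 76.4%. With the B cell labels exchanged the 12 h counts were 6 and 6, H2-K1 (0.18, adjusted p = 0.0104) and H2-T23 (-0.35, 0.0367) being added against BMDM. The replicate block added Tapbp between untreated B cells and EPM (-0.18, adjusted p = 0.031) and H2-T23 between the 12 h controls of B cells and BMDM (-0.29, 0.00286).

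For the genes with several probes the order of the cell types depended on the probe. By the brightest H2-K1 probe untreated B cells stood above untreated EPM by 0.55, by A_52_P50496 above by 1.20, and by A_52_P474242 below by a log2 difference of -0.68, each past the threshold (adjusted p = 1.07e-07, 2.80e-08 and 3.89e-05). For B2m the brightest probe and A_51_P129006 put B cells below EPM, at -0.55 and -0.24, and A_52_P105594 put them above, at 2.18 (adjusted p = 1.31e-08). Between untreated B cells and BMDM the H2-M3 probes gave 0.58 and -0.51, both past the threshold, and between untreated B cells and EPM 1.08 and 0.09, the second not past it (adjusted p = 0.29). By the other Tapbp probe untreated B cells stood below EPM and BMDM, at -0.37 and -0.40 (adjusted p = 0.00876 and 0.00567). In the 12 h controls the Tapbp probes opposed each other between B cells and BMDM, at 0.29 and -0.41, both past the threshold. Tap1, Tap2 and H2-T23 have 1 probe each, so no such comparison could be made for them. The lower B2m of EPM against BMDM was past the threshold with all 3 probes, at -0.36, -0.46 and -0.54.

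Ordered by level, Tap1 was highest in EPM given KLA for 12 h (12.95 and 12.94), just above BMDM given KLA for 12 h (12.82 and 12.87), and lowest in the other 3 EPM conditions, whose channels overlapped, at 8.92 to 9.25. The 4 B cell conditions and the other 3 BMDM conditions lay between, from 10.25 to 10.81. For Tap2 the 4 B cell conditions overlapped at 11.70 to 12.10, above the 6 macrophage conditions without 12 h of KLA, which overlapped at 10.12 to 10.65.

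Over the means of the 12 conditions the genes outside the 8 most like Tap1 were Psmb8, which encodes an immunoproteasome subunit (Pearson's r = 0.98), Adar, which encodes an RNA-editing adenosine deaminase (0.98), and BC057170 (0.98). Most like B2m were Capza2, a capping protein subunit (0.98), Pilrb1 (0.97) and Oas2 (0.97), and most like H2-K1 were Ly6c (0.97), LOC56628 (0.95) and Nlrc4 (0.95). The conditions share arrays, slides and cell types, so these correlations are a description. Among the 7 genes the correlation with Tap1 ran from 0.40 for H2-T23 to 0.84 for Tap2. Other pairs did not vary together, such as H2-K1 with H2-T23 (-0.29), B2m with H2-M3 (-0.07) and B2m with H2-K1 (0.02).

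Upstream of the transporter, all 5 genes of the immunoproteasome and its activator rose at 12 h, in EPM and in BMDM, where 19.6% and 28.6% of all genes rose. Psmb9, Psmb10 and Psmb8, which encode the inducible catalytic subunits, changed by 3.32, 2.80 and 2.74 in EPM and by 1.75, 2.20 and 1.38 in BMDM. Psme1 and Psme2, the activator chains, changed by 2.04 and 1.61 in EPM and by 1.49 and 1.37 in BMDM. The study's late list holds Psmb9 too, so the limit given for Tap1 and Tap2 in EPM applies to it. Psmb9, the neighbour of Tap1, was at 11.69 and 11.75 in EPM with DMSO and 15.08 and 14.99 with KLA for 12 h. At 1 h none of the 5 rose in either macrophage, and 4 fell in EPM, where 19.7% of all genes did, and 1 in BMDM, against 17.6%. Of the 3 constitutive catalytic subunits, 2 rose in EPM, Psmb7 by 0.66 and Psmb6 by 0.46, and 1 in BMDM, Psmb7 by 0.20.

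Other class I and class I-like chains moved in both directions at 12 h: 12 rose and 3 fell of 15 tested in EPM and 10 rose and 4 fell of 15 in BMDM, with median changes of 0.55 and 0.45. At this threshold 19.6% of all genes rose and 34.3% fell in EPM, and 28.6% rose and 36.3% fell in BMDM. H2-Q8, H2-T22 and H2-T24, heavy chains of the Q and T regions, rose 33.2-fold, 8.59-fold and 4.81-fold in EPM and 6.4-fold, 7.34-fold and 6.32-fold in BMDM. Hfe, which regulates iron uptake, Fcgrt, the neonatal Fc receptor chain, and Mr1, which presents microbial metabolites, fell by 1.06, 0.93 and 0.40 in EPM and by 1.22, 1.13 and 0.87 in BMDM on the log2 scale.

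Of the genes listed for peptide loading, trimming and quality control in the endoplasmic reticulum, 5 rose and 10 fell of 23 in EPM and 7 rose and 10 fell of 23 in BMDM. Of all genes 19.6% rose and 34.3% fell in EPM, and 28.6% rose and 36.3% fell in BMDM, so the rises on this list lay near the share of all genes. Tapbpl, the tapasin-related editor, changed by 2.94 in EPM and 2.38 in BMDM, and Arts1, the aminopeptidase also called Erap1, by 1.65 and 0.76. The list also holds Cybb, a subunit of the phagocyte NADPH oxidase, which lies outside these functions and changed by 1.49 and 1.74. The chaperone gene Calr fell by 1.06 in EPM and was at -0.12 in BMDM (adjusted p = 0.295). Ugcgl1, the glucosyltransferase that marks misfolded glycoproteins, fell by 0.89 in EPM and 1.11 in BMDM, and P4hb, a disulphide isomerase, by 0.84 and 0.31.

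Among regulators of class I transcription, 11 rose and 5 fell of 19 in EPM and 9 rose and 5 fell of 19 in BMDM at 12 h. For each count of this paragraph the shares of all genes at 12 h were 19.6% rising and 34.3% falling in EPM and 28.6% and 36.3% in BMDM. Irf7, Irf1 and Stat2, interferon-pathway transcription factors, changed by 5.64, 3.73 and 3.63 in EPM and by 4.08, 2.31 and 2.72 in BMDM. Irf1 had already changed by 2.49 in EPM and 2.74 in BMDM at 1 h, while Irf7 (-0.26 and -0.11) had not passed. Irf8, Creb1 and Nfya fell by 0.85, 0.56 and 0.44 in EPM. Of the interferons and their receptors, 5 rose and 2 fell of 8 in EPM and 5 rose and 2 fell of 8 in BMDM. Ifnb1, which encodes interferon beta, was not well above background in EPM given DMSO and was at least 2.32-fold higher with KLA (adjusted p = 3.74e-09), a bound set per array against the higher of the probe's own signal and the lowest signal among probes well above background, which for Ifnb1 was its own, and it changed by 4.32 in BMDM, where 1 of the 2 DMSO channels was well above background. Ifng, which encodes interferon gamma, was at least 6.16-fold higher in EPM (adjusted p = 3.71e-14). In BMDM Ifng was at least 1.15-fold higher (adjusted p = 0.0112), with only 1 of the 2 KLA channels well above background. In EPM at 12 h none of the 4 tested NK cell markers passed the test. With KLA none of the 5 on the array was well above background, so the test cannot follow them there. Of 8 tested T cell markers 2 rose and 3 fell, with a summed level of all 9 of 1300 to 1350 with KLA and 1350 to 1380 with DMSO. The part of NK and T cells in the result was not tested. Of the MHC class II list, 3 of 10 rose in EPM and 6 of 10 in BMDM, and none fell.

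**Figure D4:**
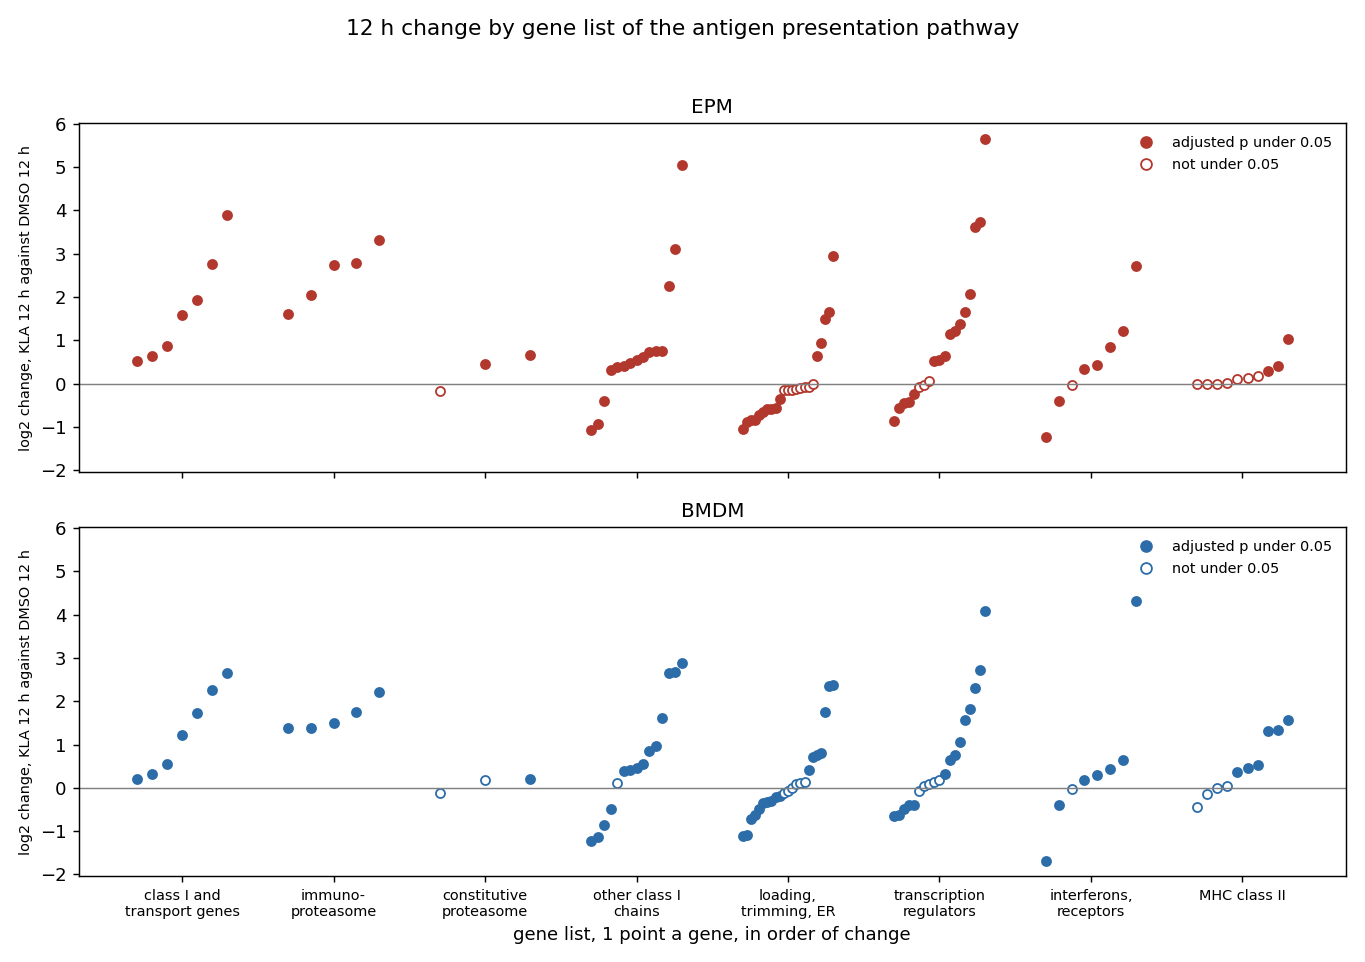
Log2 change at 12 h of KLA against DMSO (vertical axis) for each tested gene of the 7 measured class I and transport genes and of 7 lists of related genes (horizontal axis), in EPM and BMDM, filled where the adjusted p was under 0.05. All genes of the first 2 columns rose, while the loading and regulator lists spread on both sides of 0.

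In B cells at 12 h none of the 5 immunoproteasome genes passed the test, where 5.29% of all genes did, with changes of -0.08 to 0.24. These changes were not recomputed with the B cell labels exchanged.

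H2-D1 could not be described by its name. An accession that RefSeq gives to H2-D1 is listed in the files for a probe named LOC547343, A_51_P496996, together with other accessions. This probe is outside the rule and was chosen after its values were seen. It changed by 0.39 ± 0.11 in EPM (adjusted p = 0.0066) and 0.12 ± 0.11 in BMDM (0.371) at 12 h.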

How the data were processed

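Expression was measured on 12 Agilent 2-colour mouse arrays, 24 channels, each channel a sample of its own. The deposited scanner files hold spot intensity values from Agilent Feature Extraction 9.5.3.1, as the submitters' processing notes name it, and the authors also deposited a table of normalized intensity values for 38516 probes, used as an alternative. How that table was normalized is not given in the sources used here. From the scanner values, background was corrected by normexp with offset 50, followed by loess within arrays, Aquantile between arrays and log2 of each channel. Outlier spots were left out and spots of a probe averaged. The brightest probe stood for a gene. A gene was kept where some condition had it well above background in its Cy5 and its Cy3 channel, which left 17347 of 21597. These were fitted in limma 3.58.1 (R 4.3.3) with a coefficient for each condition, leaving 12 residual degrees of freedom. All adjusted p-values are limma's, after Benjamini-Hochberg adjustment over all genes tested, or over all 30727 probes tested where a probe is named, and the threshold is 0.05. The 2 channels of a condition share an array, so these p-values measure the spread between channels. The methods speak of biological triplicates, whereas the files used here give a pair of channels per condition. The number of arrays limits the precision, and 57.4% to 65% of probes were well above background in a channel. The Cy5 minus Cy3 deviations of any 2 conditions correlated at 0.26 to 0.63 over 66 pairs, so the replicate number, which is the dye, pairs the samples, and the fit with it as a block is given where it changes a call. The fitting script was tested on simulated data. Genes named were the 8 members, the 3 genes most like Tap1, B2m and H2-K1, up to 3 with the largest and 3 with the smallest called 12 h change in EPM from each list, and all 5 immunoproteasome genes. The members and lists were chosen with earlier results of these data known. Alternatives changed the background correction, normalization, filter, probe, threshold, block, samples in the fit, unit of replication and B cell labels.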

Additional observations from a re-analysis of the deposited data

Results flagged for a closer look

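Responses to KLA that differed between cell types or times by limma's test of the difference itself were marked for a closer look. The 12 h change with KLA was larger in EPM than in BMDM by 1.64 for Tap1, 0.55 for B2m and 0.45 for H2-K1 on the log2 scale, by the brightest probes. Another H2-K1 probe, A_52_P474242, gave -0.11 (limma, adjusted p = 0.624). The 12 h change in B cells minus that in EPM was -4.01 for Tap1, -2.69 for Tap2, -1.96 for Tapbp, -0.78 for B2m, -0.65 for H2-K1 and -1.59 for H2-M3. The 12 h change in B cells minus that in BMDM was -2.37 for Tap1, -2.59 for Tap2, -1.73 for Tapbp, -0.23 for B2m, -0.54 for H2-T23 and -1.22 for H2-M3. In EPM the change at 12 h exceeded that at 1 h by 3.80 for Tap1, 2.74 for Tap2, 1.53 for Tapbp, 1.29 for B2m, 0.62 for H2-K1, 0.73 for H2-T23 and 1.30 for H2-M3. In BMDM it did so by 2.33 for Tap1, 2.67 for Tap2, 1.51 for Tapbp, 0.67 for B2m, 0.27 for H2-K1, 0.69 for H2-T23 and 1.24 for H2-M3, the B2m value resting on the brightest of its 3 probes. In B cells the 12 h change minus the 1 h change was -0.46 for Tap1, -0.40 for Tapbp and 0.35 for B2m, the last 2 by 1 probe each. Each cell type lay on a slide of its own and each condition on an array of its own, which cannot be told apart from the cell type and the condition. The B cell values rest on the libraries whose labels and the authors' table are at odds.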

How the results depend on the processing

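Of the counts recomputed under an alternative, 292 stayed within 1.5 times the count given and 41 did not. A count that stayed could rest on other genes. In BMDM at 1 h B2m lost its call and Tapbp gained one with the authors' values, without normalization between arrays and with the mean of probes. In EPM at 1 h B2m gave way to H2-K1 without normalization between arrays and to H2-M3 with the mean of probes. With array means as samples the genes called were 4 in EPM at 12 h, 0 in EPM, BMDM and B cells at 1 h, 0 for the EPM against BMDM response, 3 each for B cells against EPM and BMDM, and 3, 4 and 0 for 12 h against 1 h in EPM, BMDM and B cells. In that fit the controls cancel from the comparison of 12 h with 1 h, which is then KLA against KLA. The 12 h against 1 h count in B cells, 3, became 0 with offset 16, processed signals, the authors' values with or without the 4 columns exchanged back, the filter on all channels, the fit of single cell types or a threshold of 0.01, and 1 without normalization between arrays. The 1 h count in EPM, 2, became 1 with processed signals or the authors' values. The 1 h count in BMDM, 1, became 2 with processed signals, the replicate block, the fit of single cell types or centring on all genes. The 1 h count in B cells, 3, became 0 with processed signals and 1 with the fit of single cell types, a threshold of 0.01 or the authors' columns exchanged back. The 12 h count in B cells, 0, became 1 with the authors' values or the B cell labels exchanged. The count for the EPM against BMDM response, 3, became 5 without normalization between arrays. The pairing by dye, fitted as a replicate block, changed no call on the 7 genes other than those given above.

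Directions turned for 20 values. With processed signals Tapbp was at -0.11 in EPM at 1 h and at 0.20 for B cells against BMDM, early controls. Without normalization between arrays B cells against BMDM gave -0.29 for Tap1 (early) and -0.36 for Tapbp (12 h). With the mean of probes B2m was at 0.12 in EPM and 0.18 in BMDM at 1 h, at 0.46 (early) and 0.52 (12 h) for B cells against EPM and at 0.0083 for B cells against BMDM (early), and Tapbp at -0.057 for B cells against BMDM (12 h). The brightest H2-K1 probe is not among the rows of the authors' table used here, and another probe stood in. H2-K1 was then at 0.22 and 0.18 for EPM against BMDM, -0.70 and -0.48 for B cells against EPM and -0.48 and -0.30 for B cells against BMDM (early and 12 h). With the 4 columns exchanged back, an alternative chosen after seeing the data, the B cell values were -0.70 and -0.53 against EPM and -0.48 and -0.36 against BMDM. Apart from the probe that stood in, the cause was not tested. Of the other values of single genes 50 lost a call, 42 gained one and 1316 kept their side of the threshold, 84 of these with a change of sign in a value not called.

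Leaving out 1 channel gave counts of 2 to 3 (EPM, 1 h), 6 to 7 (EPM, 12 h), 1 to 1 (BMDM, 1 h), 6 to 7 (BMDM, 12 h), 0 to 3 (B cells, 1 h) and 0 to 0 (B cells, 12 h). For early controls they were 4 to 5 (EPM against BMDM), 6 to 7 (B cells against EPM) and 3 to 4 (B cells against BMDM), and for 12 h controls 5 to 5, 6 to 6 and 4 to 5. For differences in response they were 3 to 4, 6 to 7 and 4 to 6, and for 12 h against 1 h 6 to 7 (EPM), 6 to 7 (BMDM) and 0 to 3 (B cells).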
